A study of Danio rerio with 6 samples.

Results

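The genes described here encode the fibrous and sheet-forming proteins of the extracellular matrix and the integrins that bind them. They were picked by name, as every gene listed in the platform annotation as a collagen chain, a laminin chain, a fibronectin, an integrin subunit or tenascin C, and the pattern took in 54 of 14434 named genes on the array, read by 71 features. By role these were 26 collagens, 9 laminins, 2 fibronectins, 15 integrin subunits and 2 genes that share the integrin prefix without encoding a subunit. No feature was listed under *tnc*. Where a gene had several features, the one with the brightest average across the 6 arrays stood for it.

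The study asked which genes respond to Nodal signalling in the zebrafish blastula. Whole AB-strain embryos were injected, per the labels, with 1 nl of water holding 50 pg of *ndr1* mRNA, which encodes a Nodal ligand, or with 1 nl of water alone, and were collected at sphere stage. There were 3 *ndr1*-injected and 3 control-injected samples of about 200 embryos each, every sample hybridised to its own one-colour array. Each sample was a pool of whole embryos, so every value is an average over the blastoderm, the enveloping layer and the yolk cell, and fewer cells of a type cannot be told apart from less RNA per cell. Nothing in the labels ties replicates to different clutches or days, and the p-values hence cover the spread among these 6 samples and may reflect technical error only.

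Collagens are secreted as triple helices that assemble into fibrils, networks or sheets, and laminins are cross-shaped trimers of an alpha, a beta and a gamma chain on which basement membranes are built. Fibronectin is a soluble dimer that cells stretch into fibrils through the integrin of the alpha-5 and beta-1 subunits. Integrins are heterodimers of an alpha and a beta subunit that span the membrane and tie the matrix to actin. In zebrafish, fibronectin and its receptor are best known from gastrulation, somite boundaries and the migration of heart precursors, and the laminin chains from the notochord, all of which come after the stage sampled here.

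The arrays were alike in overall signal, with medians between 8.70 and 8.71 log2 units (base 2 was inferred from the range of the deposited values). Over all features the *ndr1*-injected arrays correlated with each other at 0.920 to 0.926 and the control-injected arrays at 0.836 to 0.886. The injected gene separated the groups, with *ndr1* averaging 14.18 log2 units in *ndr1*-injected and 10.52 in control-injected embryos, a difference of 3.65 ± 0.37 (moderated SE). All 7 blastula markers were measured, with group means of 11.68 to 15.31 log2 units in *ndr1*-injected and 11.09 to 15.46 in control-injected embryos. The 7 measured markers of differentiated later cells had means of 7.07 to 10.94 in *ndr1*-injected and 7.82 to 11.10 in control-injected embryos. Markers of the enveloping layer (6 of 8 measured) had means of 10.995 to 13.57 in *ndr1*-injected and 11.05 to 12.94 in control-injected embryos, and all 5 markers of the yolk syncytial layer 7.46 to 12.44 in *ndr1*-injected and 7.67 to 12.48 in control-injected embryos. An array signal is not comparable between genes, so these ranges only describe the probes. The values also carried a trend with feature position, whose local shift had an SD of 0.285 to 0.301 log2 units on the *ndr1*-injected arrays and 0.397 to 0.497 on the control-injected arrays, and differences after its subtraction are given for each gene named whose difference then turned or moved by more than 1.5 times. Single markers differed within the marker ranges. An unadjusted p below 0.05 in limma, found for 6.93% of all named genes, was reached by the blastula marker *vent*, at 0.59. It was also reached by *krt18a.1* of the enveloping layer, at 1.45 (0.92 after the subtraction). Of the listed markers of the yolk syncytial layer, *gata6* was at 2.31 and *slc40a1* at -1.24 (-0.58 after the subtraction), both with an unadjusted p below 0.05. None of these markers had an adjusted p below 0.05.

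None of the 54 matrix and integrin genes passed the test between *ndr1*-injected and control-injected embryos. With limma and Benjamini-Hochberg adjustment over all named genes, 0 of 54 had an adjusted p below 0.05, against 0.0208% of all named genes, and the adjusted p-values of the members ran between 0.694 and 0.999. The injected gene *ndr1*, with a difference of 3.65, also missed this threshold, with an adjusted p of 0.066. At an unadjusted p below 0.05 there were 3 members, 5.56%, against 6.93% of all named genes. They were 2 members higher in *ndr1*-injected embryos, *col27a1b* and *itgb1b.2*, where the background of higher genes was 4.34%, and 1 lower, *col15a1b*, where the background of lower genes was 2.59%. All 3 were dim, with an average over the 6 arrays in the dimmest 25% of the array, below 7.79 log2 units. A share of members below that of all genes is not a result about the members.

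The 2 groups of arrays did not overlap for 4 of the 54 members, 7.41%, against 14.0% of all named genes. For *col27a1b* and *itgb1bp1* all *ndr1*-injected arrays lay above all control-injected arrays, against 8.11% of all genes, and for *col15a1b* and *itgb1a* they lay below, against 5.86%. The median difference of the members was -0.01 log2 units, with quartiles of -0.45 and 0.44, and that of all named genes was 0.01, with quartiles of -0.27 and 0.31. Of the members 26 were higher and 28 lower on average. The centre was near 0 for both, and the quartiles lay farther apart among the members.

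**Figure D1:**
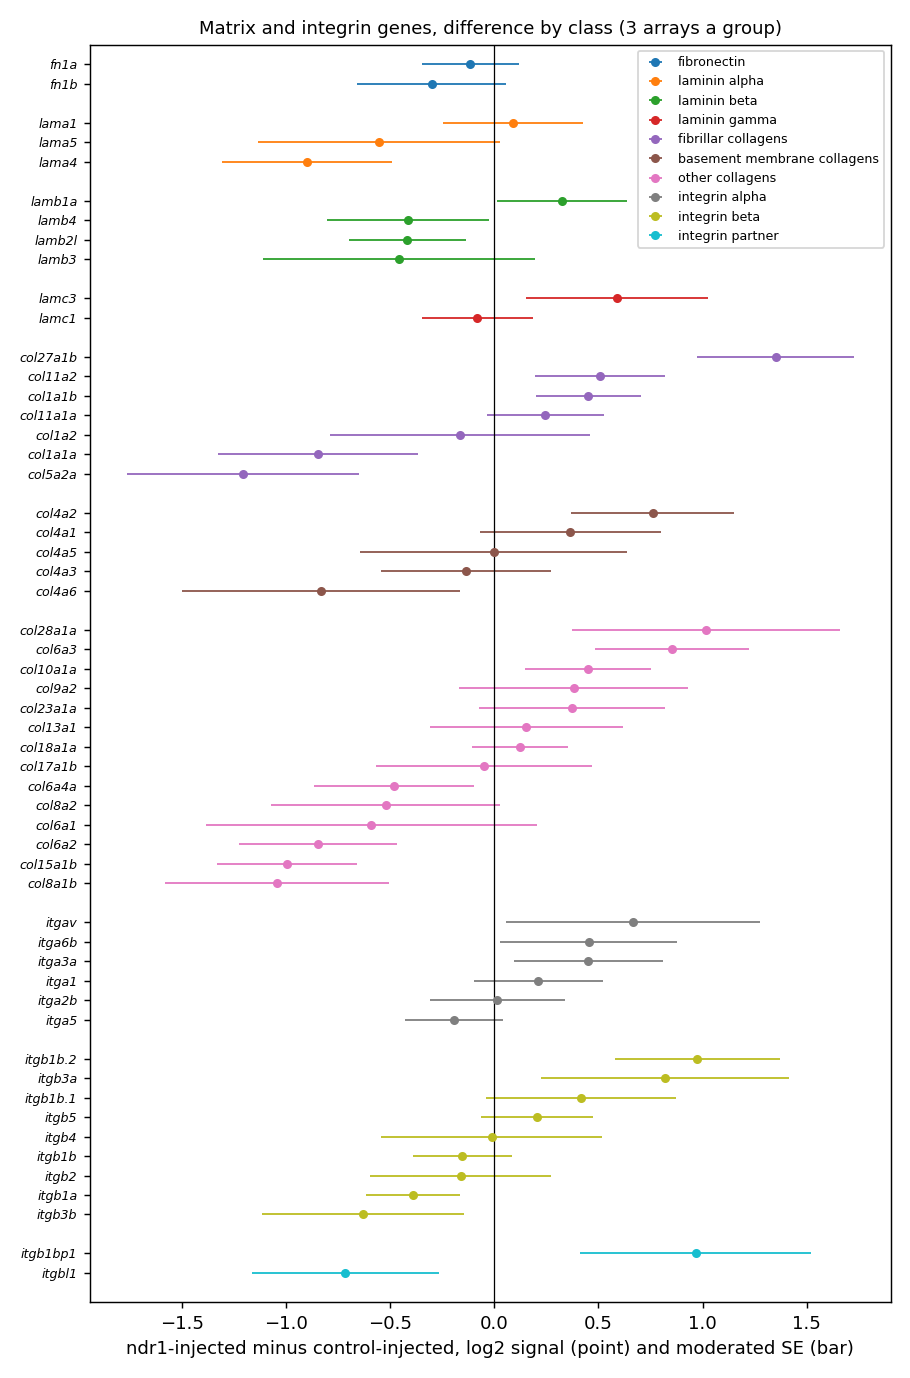
Difference in log2 signal, *ndr1*-injected minus control-injected, for each of the 54 genes, grouped and coloured by class. Points are differences of group means over 3 arrays each and bars are 1 moderated SE on either side. Each class with 3 or more genes has members on both sides of 0, between -1.21 (*col5a2a*) and 1.35 (*col27a1b*).

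Fibronectin and its main receptor were each read by the brightest feature of their class and were measured more tightly than most members in the deposited values. *fn1a*, the fibronectin gene required for heart precursor migration in zebrafish, gave 12.18, 11.68 and 11.91 log2 units on the *ndr1*-injected arrays and 12.12, 12.08 and 11.92 on the control-injected arrays. *itga5*, the alpha-5 subunit of the fibronectin receptor, gave 11.30, 11.45 and 11.36 in *ndr1*-injected and 11.78, 11.26 and 11.65 in control-injected embryos. *itgb1b*, a beta-1 subunit that pairs with it, gave 12.02, 11.77 and 11.59 in *ndr1*-injected and 12.12, 11.72 and 12.01 in control-injected embryos. The arrays of both groups were interleaved for all 3 genes.

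The difference was -0.12 ± 0.23 for *fn1a*, with a 95% interval of -0.67 to 0.43. It was -0.19 ± 0.24 for *itga5*, with an interval of -0.75 to 0.36, and -0.15 ± 0.24 for *itgb1b*, with an interval of -0.72 to 0.41. With array position subtracted *fn1a* was at -0.17 ± 0.39, *itga5* at -0.32 ± 0.24 and *itgb1b* at 0.09 ± 0.39. A change of 1 log2 unit, which is a doubling or a halving, lay outside all 3 intervals of the deposited values, while a smaller change did not. This holds for these features as deposited only, since the SEs of *fn1a* and *itgb1b* were larger after the subtraction. The dimmer feature of *fn1a* had an interval of -0.06 to 1.72, which held such a change. The 3 genes were among the 11 members, 20.4%, whose whole interval lay within 1 log2 unit of 0 as deposited, against 42.5% of all named genes.

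*itgb1a*, the other beta-1 paralogue, gave 8.89, 9.07 and 8.98 in *ndr1*-injected and 9.60, 9.19 and 9.33 in control-injected embryos. Every *ndr1*-injected array was below every control-injected array, but the difference was small, -0.39 ± 0.22 (unadjusted p = 0.124), and it was -0.00 after array position was subtracted. *itgb1b.2*, a further copy of the beta-1 gene, gave 8.01, 6.73 and 8.13 in *ndr1*-injected and 6.52, 6.63 and 6.80 in control-injected embryos. Replicates 1 and 3 of the *ndr1*-injected group were high and replicate 2 lay among the controls, for a difference of 0.98 ± 0.40 (unadjusted p = 0.043) that was 0.36 ± 0.26 after subtraction of array position. The copy *itgb1b.1* differed by 0.42 ± 0.46. Beta-1 copies share sequence, and the probes were not checked for reading more than 1 of them.

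The second fibronectin gene, *fn1b*, gave 9.48, 9.19 and 9.58 in *ndr1*-injected and 9.58, 9.14 and 10.42 in control-injected embryos. Only replicate 3 of the controls stood above the rest, and the difference was -0.30 ± 0.36, or -0.12 ± 0.20 after subtraction of array position. *itgav*, the alpha-v subunit of receptors for vitronectin and fibronectin, gave 10.66, 9.67 and 10.53 in *ndr1*-injected and 10.46, 10.17 and 8.23 in control-injected embryos. Its difference of 0.67 ± 0.61 rested on the low value of control-injected replicate 3 and was -0.03 without that array. After subtraction of array position it was 0.94 ± 0.40 (unadjusted p = 0.047).

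The beta partners of alpha-v also overlapped between the groups. *itgb5* gave 11.14, 11.26 and 11.59 in *ndr1*-injected and 11.51, 10.83 and 11.03 in control-injected embryos, a difference of 0.21 ± 0.27 that was 0.52 ± 0.24 after subtraction of array position. The other feature of *itgb5*, of similar brightness, was at -0.06 ± 0.32 as deposited. *itgb3a*, which also joins the platelet subunit encoded by *itga2b*, gave 10.43, 9.14 and 9.70 in *ndr1*-injected and 9.79, 9.35 and 7.67 in control-injected embryos. Its difference was 0.82 ± 0.60, with replicate 3 of the controls again the low array, and it was 0.19 without that array and 0.18 ± 0.51 after subtraction of array position. Its paralogue *itgb3b* was at -0.63 ± 0.49 and *itga2b* at 0.01 ± 0.32, and after that subtraction both were at -0.30.

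**Figure D2:**
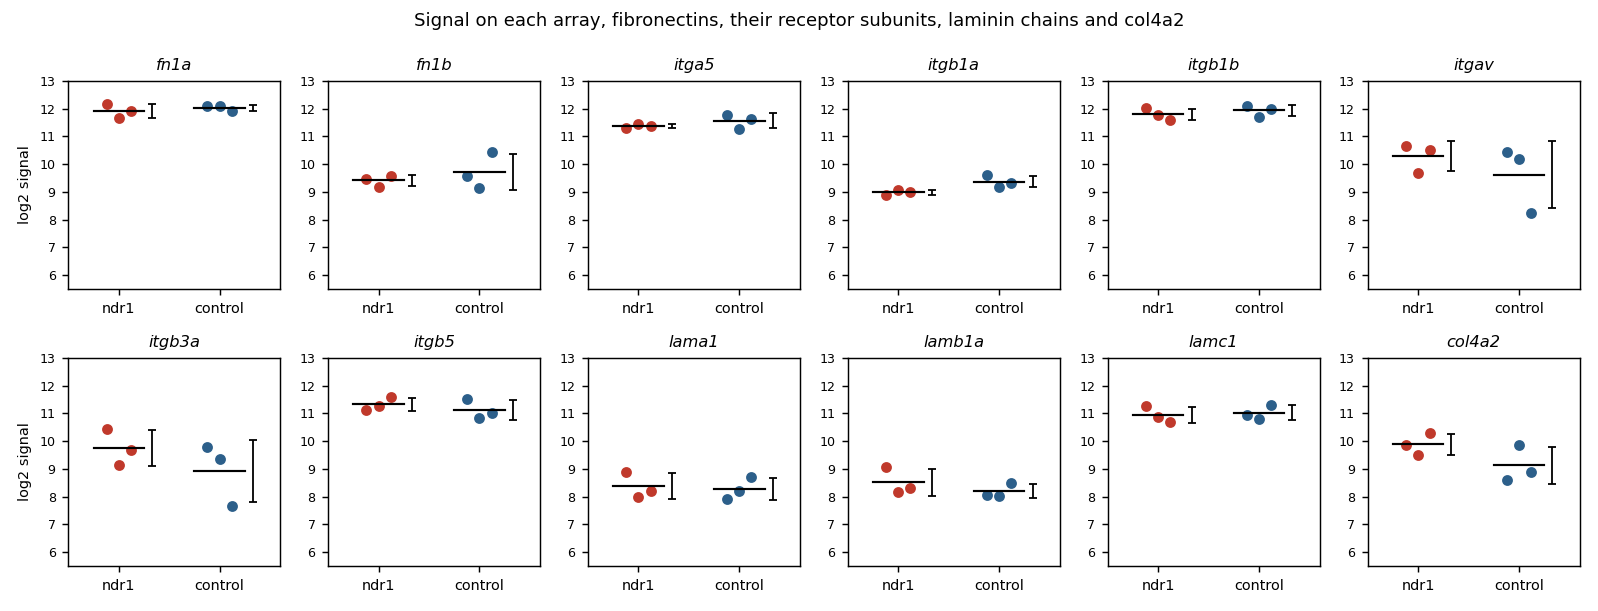
Log2 signal of 12 genes on every array: the fibronectins *fn1a* and *fn1b*, subunits of their receptors, 3 laminin chains and *col4a2*. Points are arrays (replicates 1 to 3 from left to right, *ndr1*-injected left, control-injected right), lines are group means and brackets 1 SD. *itgb1a* is the only gene shown whose groups do not overlap, by 0.39 log2 units between the means, and *itgav* and *itgb3a* each have 1 low control-injected array, at 8.23 and 7.67.

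The remaining integrin subunits had differences between -0.16 and 0.45. The laminin receptor subunits *itga3a* and *itga6b* were both higher on average, by 0.45 ± 0.36 (0.28 after subtraction of array position) and 0.45 ± 0.42, and *itga1*, a subunit of a collagen receptor, by 0.21 ± 0.31. *itgb4*, the hemidesmosome subunit that pairs with alpha-6, was at -0.01 ± 0.53 (-0.04 after the subtraction), and *itgb2*, the subunit of leukocyte integrins, at -0.16 ± 0.44. Over the 15 subunits the median was 0.21, with 0.33 for the 6 alpha and -0.01 for the 9 beta chains. Of the 15 subunits 1 (6.67%), *itgb1b.2*, had an unadjusted p below 0.05, against 6.93% of all named genes.

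Both genes that carry the prefix without encoding a subunit differed more in single arrays than between groups. *itgb1bp1*, a cytoplasmic protein that binds the tail of beta-1, gave 10.96, 10.76 and 10.81 in *ndr1*-injected and 10.46, 10.67 and 8.51 in control-injected embryos. The groups did not overlap, but the difference of 0.97 ± 0.56 (unadjusted p = 0.125) came mostly from control-injected replicate 3, and was 0.28 without it. *itgbl1*, a secreted protein with repeats like those of beta subunits, was at -0.72 ± 0.45. The subtraction of array position brought *itgb1bp1* to 0.54 ± 0.48 and *itgbl1* to -0.44 ± 0.43.

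The 9 laminin chains had a median difference of -0.42, which was -0.03 after subtraction of array position. An unadjusted p below 0.05 was reached by 0 of 9, against 6.93% of all named genes. *lama4*, an alpha chain of vessel and muscle basement membranes, gave 7.58, 8.59 and 7.07 in *ndr1*-injected and 8.88, 8.69 and 8.36 in control-injected embryos. Replicates 1 and 3 of the *ndr1*-injected group were below all controls and replicate 2 was within their range, and the difference was -0.90 ± 0.41 (unadjusted p = 0.062), or -0.54 ± 0.30 after subtraction of array position. *lama5*, an alpha chain found in skin basement membrane, was at -0.55 ± 0.58, or -0.27 ± 0.28 after that subtraction and -0.03 without control-injected replicate 3.

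The 3 chains known to build the notochord laminin in zebrafish had differences on both sides of 0. *lamc1*, the gamma chain of that trimer, gave 11.27, 10.87 and 10.68 in *ndr1*-injected and 10.95, 10.80 and 11.31 in control-injected embryos, a difference of -0.08 ± 0.27. Its alpha chain *lama1* gave 8.90, 7.996 and 8.21 in *ndr1*-injected and 7.92, 8.19 and 8.72 in control-injected embryos, a difference of 0.09 ± 0.34. Its beta chain *lamb1a* gave 9.07, 8.15 and 8.33 in *ndr1*-injected and 8.06, 8.03 and 8.48 in control-injected embryos, a difference of 0.33 ± 0.31. The groups overlapped for each chain, and the 95% interval of the deposited values reached beyond 1 log2 unit only for *lamb1a*, at -0.41 to 1.06. After subtraction of array position *lamc1* was at 0.39 ± 0.39 and *lama1* at -0.03 ± 0.23.

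Among the other beta chains, *lamb2l* was at -0.42 ± 0.28, *lamb4* at -0.42 ± 0.39 and *lamb3*, a chain of epidermal laminin, at -0.46 ± 0.65. The groups overlapped for all 3. With array position subtracted *lamb2l* was at 0.00 and *lamb4* at -0.68 ± 0.38. *lamb4* had 1 low *ndr1*-injected array, replicate 1 at 6.18, and *lamb3* had 1 high control-injected array, replicate 2 at 8.88, with the other 5 arrays of both groups between 6.30 and 6.82. *lamc3*, the other gamma chain, was at 0.59 ± 0.44, or 0.35 ± 0.20 after the subtraction.

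The fibrillar collagens held both ends of the range. *col27a1b*, which encodes a fibrillar collagen needed in the zebrafish notochord and spine, gave 8.13, 7.36 and 8.26 in *ndr1*-injected and 7.19, 6.14 and 6.37 in control-injected embryos. All *ndr1*-injected arrays were above all controls, by as little as 0.17 between the nearest arrays. The feature was in the dimmest 25% of the array. The difference was 1.35 ± 0.38, or 2.55-fold with a 95% interval of 1.38 to 4.72-fold (unadjusted p = 0.009, adjusted p = 0.694), and it was 0.90 ± 0.33 after subtraction of array position (unadjusted p = 0.026).

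*col5a2a*, a chain of collagen V that sets the width of fibrils, gave 6.42, 7.83 and 6.26 in *ndr1*-injected and 7.16, 8.15 and 8.81 in control-injected embryos. Here *ndr1*-injected replicate 2 lay within the range of the controls, and the difference of -1.21 ± 0.56 had a 95% interval that held 0 (-2.52 to 0.10). The SD was 0.86 in *ndr1*-injected and 0.83 in control-injected embryos. The median SD over members was 0.399 in *ndr1*-injected and 0.669 in control-injected embryos, against 0.293 and 0.400 over all named genes.

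The chains of collagen I, the main fibril of skin and bone, also had differences on both sides of 0. *col1a1b* gave 8.26, 7.81 and 8.09 in *ndr1*-injected and 7.47, 7.42 and 7.91 in control-injected embryos, a difference of 0.45 ± 0.25, or 0.15 ± 0.23 after subtraction of array position. Its paralogue *col1a1a* gave 7.47, 8.14 and 8.21 in *ndr1*-injected and 8.99, 7.78 and 9.59 in control-injected embryos, a difference of -0.85 ± 0.48, or -0.32 ± 0.32 after the subtraction and -0.45 without control-injected replicate 3. *col1a2*, the partner chain and the brightest fibrillar feature, gave 8.87, 9.11 and 9.34 in *ndr1*-injected and 8.93, 8.13 and 10.75 in control-injected embryos. The *ndr1*-injected arrays of *col1a2* lay inside the wide range of the controls, and the difference of -0.16 ± 0.62 was 0.58 without control-injected replicate 3 and 0.11 ± 0.32 after the subtraction. The collagen XI chains of cartilage fibrils, *col11a2* and *col11a1a*, were at 0.51 ± 0.31 and 0.25 ± 0.28 (0.23 and -0.15 after the subtraction), and the median of the 7 fibrillar genes was 0.25.

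**Figure D3:**
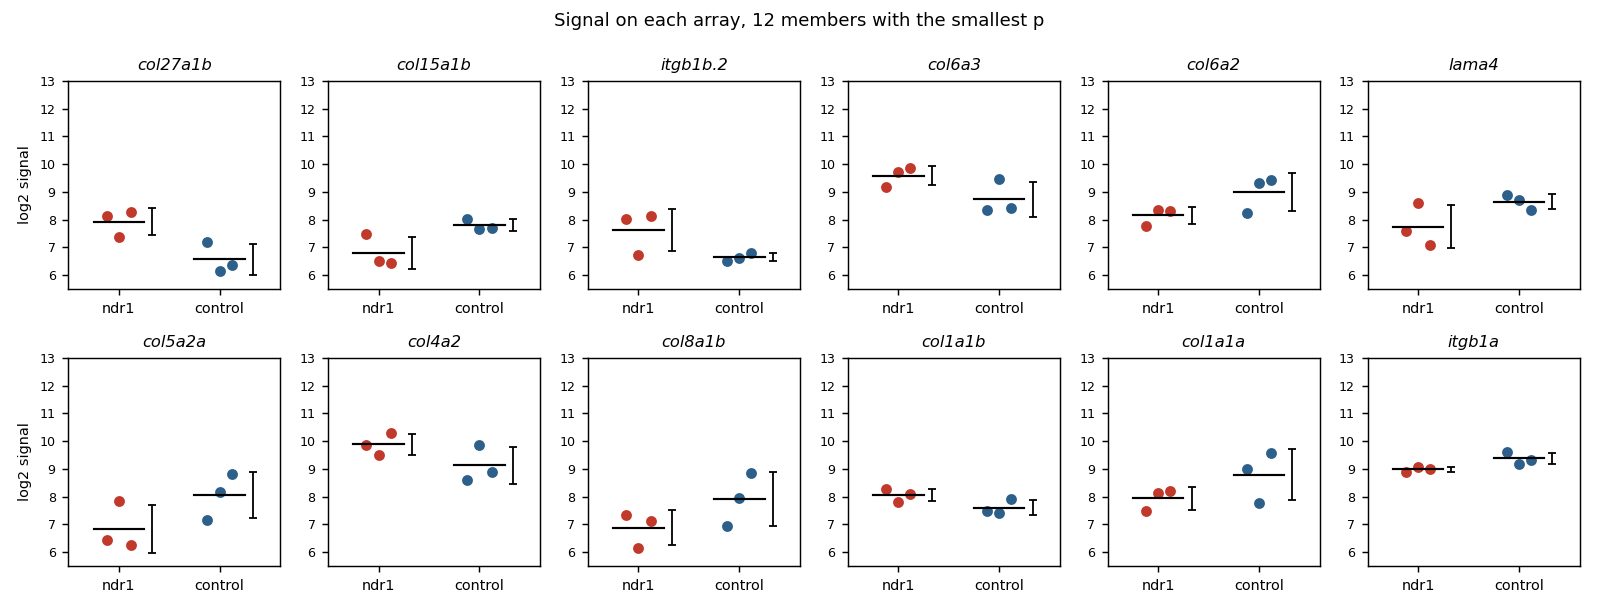
Log2 signal on every array for the 12 members with the smallest p. Points are arrays (replicates 1 to 3 from left to right, *ndr1*-injected left, control-injected right), lines are group means and brackets 1 SD. The groups are apart for *col27a1b*, *col15a1b* and *itgb1a* and overlap for the other 9 genes.

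Collagen IV, the network of basement membranes, is made of chains that pair by gene. *col4a2* gave 9.87, 9.50 and 10.28 in *ndr1*-injected and 8.60, 9.87 and 8.90 in control-injected embryos, and its partner *col4a1* gave 6.96, 7.20 and 6.29 in *ndr1*-injected and 7.30, 5.87 and 6.20 in control-injected embryos. The differences were 0.76 ± 0.39 for *col4a2* (unadjusted p = 0.091) and 0.36 ± 0.43 for *col4a1*, and subtraction of array position brought them to 0.03 ± 0.19 and -0.01 ± 0.22. The chains of the other networks, *col4a3*, *col4a5* and *col4a6*, were at -0.14 ± 0.41, -0.00 ± 0.64 (-0.40 after the subtraction) and -0.83 ± 0.67. No interval of the 5 genes lay within 1 log2 unit of 0 in the deposited values.

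*col15a1b*, a collagen of the basement membrane zone, gave 7.47, 6.51 and 6.42 in *ndr1*-injected and 8.04, 7.65 and 7.70 in control-injected embryos. The groups were apart, by 0.18 between the nearest arrays. The difference was -0.99 ± 0.34 (1.99-fold lower, unadjusted p = 0.021, adjusted p = 0.711), and after subtraction of array position -0.55 ± 0.31 (unadjusted p = 0.113). *col18a1a*, the related collagen from which endostatin is cut, was at 0.12 ± 0.23 on its brightest feature, or 0.20 ± 0.22 after the subtraction.

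Collagen VI forms beaded microfibrils from 3 chains, whose differences lay on both sides of 0. *col6a3* gave 9.19, 9.72 and 9.85 in *ndr1*-injected and 8.33, 9.45 and 8.41 in control-injected embryos, a difference of 0.85 ± 0.37 (unadjusted p = 0.054). *col6a2* gave 7.78, 8.35 and 8.33 in *ndr1*-injected and 8.23, 9.33 and 9.43 in control-injected embryos, a difference of -0.85 ± 0.38 (unadjusted p = 0.060). *col6a1* gave 10.001, 8.54 and 6.95 in *ndr1*-injected and 8.16, 9.13 and 9.98 in control-injected embryos, a difference of -0.59 ± 0.80. The groups overlapped for all 3 chains, and the SD of *col6a1* in the *ndr1*-injected group, 1.53, was the largest of the 54 members in that group. After subtraction of array position *col6a3* was at 0.40 ± 0.31 and *col6a2* at -0.52 ± 0.28. *col6a4a*, a further chain of this family and the brightest of the other collagens, gave 9.47, 9.92 and 9.37 in *ndr1*-injected and 10.40, 9.27 and 10.54 in control-injected embryos, a difference of -0.48 ± 0.38, or -0.21 ± 0.24 after the subtraction.

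*col8a1b*, a short-chain collagen of vessel and corneal sheets, gave 7.33, 6.16 and 7.13 in *ndr1*-injected and 6.94, 7.94 and 8.87 in control-injected embryos. Control-injected replicate 1 lay among the *ndr1*-injected arrays, and the difference was -1.04 ± 0.54 (unadjusted p = 0.093), or -0.51 ± 0.27 after subtraction of array position. *col8a2*, its partner chain, was at -0.52 ± 0.55. *col28a1a* gave 10.56, 9.75 and 9.65 in *ndr1*-injected and 10.50, 8.14 and 8.28 in control-injected embryos, where replicate 1 of the controls was close to the highest *ndr1*-injected array, and the difference was 1.02 ± 0.64. The cartilage collagens *col9a2* and *col10a1a* were at 0.38 ± 0.55 and 0.45 ± 0.30, and the membrane-spanning collagens *col13a1*, *col17a1b* and *col23a1a* at 0.15 ± 0.46, -0.05 ± 0.52 and 0.37 ± 0.45. After subtraction of array position *col9a2* was at 0.62 ± 0.22 (unadjusted p = 0.020), *col10a1a* at 0.24, *col13a1* at -0.30 and *col17a1b* at 0.04.

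Features of the same gene often differed in sign. The same share over all named genes with several features was not counted, and differences near 0 can fall on either side. Of the 54 genes, 41 had 1 feature and 13 had several, 30 in all. In 4 of the 13, *itgav*, *lama1*, *lamb1a* and *col6a1*, all features lay on the same side of 0, and in the other 9 they lay on both sides. *col10a1a* was at 0.45 on its brighter and -1.15 on its dimmer feature. *fn1a* was at -0.12 on the bright feature and 0.83 on one with signals of 6.11 to 7.70, and *fn1b* was at -0.30, 0.34 and -0.84 on its 3 features. *lamc1* was at -0.08, 0.30 and 0.59, and *col1a1a* at -0.85 and 0.09.

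One further feature of *col18a1a* stood apart from the brightest feature of that gene. It gave 9.01, 9.15 and 9.03 in *ndr1*-injected and 8.12, 7.76 and 7.32 in control-injected embryos, a difference of 1.33, with every *ndr1*-injected array above every control. By their brightest features 8.11% of all named genes were apart in this direction. This feature had the smallest unadjusted p of the 71 (0.002 in limma). Differences after subtraction of array position were fitted for brightest features only. The other 2 features of the gene were at 0.12 and -0.31 with overlapping arrays. At the level of features, 4 of the 71 had an unadjusted p below 0.05, against 6.74% of all features, and 0 had an adjusted p below 0.05 in limma.

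**Figure D4:**
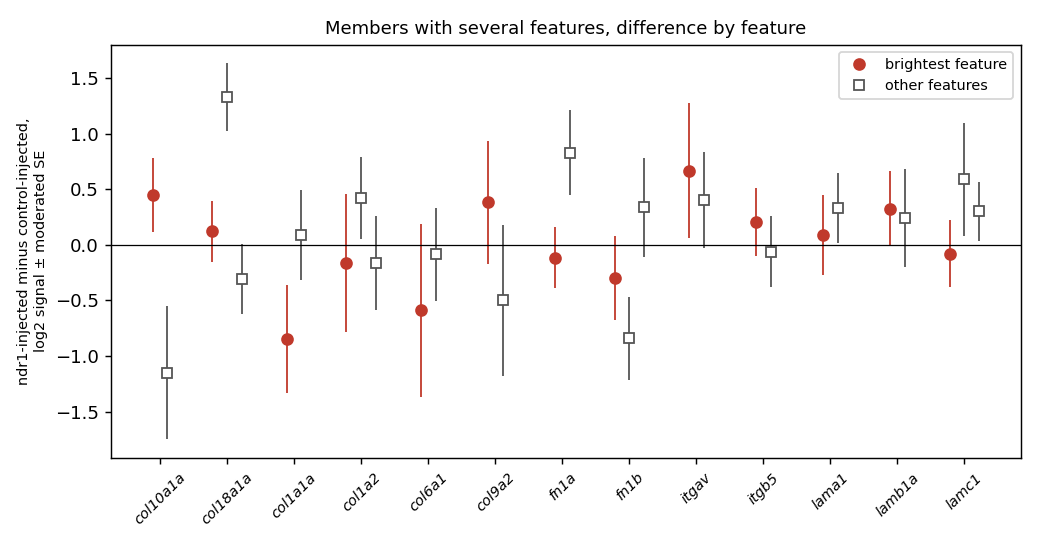
Difference in log2 signal, *ndr1*-injected minus control-injected, for the 30 features of the 13 members with several features. Filled circles are the brightest feature, by which the gene was represented, open squares the others, and bars 1 moderated SE from the fit over all features. In 9 of the 13 genes the features lie on both sides of 0, as for *col10a1a* at 0.45 and -1.15.

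Dim features were more frequent among these genes than over the array, though most of the genes were not dim. For 18 of the 54, 33.3%, every feature was in the dimmest 25% of the array, below 7.79 log2 units, against 12.9% of all named genes. The SD was larger in control-injected than in *ndr1*-injected embryos for 36 of 54, 66.7%, against 60.0% of all named genes. Control-injected replicates 2 and 3 were each the array farthest from the median of the 6 for 14 members, 25.9%, against 17.6% and 24.6% of all named genes. After subtraction of array position the median SDs of the members were 0.245 in *ndr1*-injected and 0.299 in control-injected embryos, close to the 0.256 and 0.282 of all named genes, and 31 members, 57.4%, had intervals within 1 log2 unit of 0, against 67.3% of all named genes. The larger median SDs of the members in the deposited values thus came close to those of all genes after the subtraction. Their differences still spread wider, with quartiles of -0.31 and 0.31 against -0.16 and 0.28 for all named genes. Nor were the larger SDs particular to the members before the subtraction. The matrix glycoproteins and proteoglycans described below had median SDs of 0.453 in *ndr1*-injected and 0.647 in control-injected embryos as deposited. The part of these spreads in the single differences was not tested.

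With array position subtracted, 3 of 54 members again had an unadjusted p below 0.05, 5.56%, against 5.89% of all named genes, and 0 had an adjusted p below 0.05. They were *col27a1b*, *itgav* and *col9a2*, all higher in *ndr1*-injected embryos, so that *col27a1b* was the only gene in both sets of 3. The median difference was -0.01, and that of all genes 0.05.

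**Figure D5:**
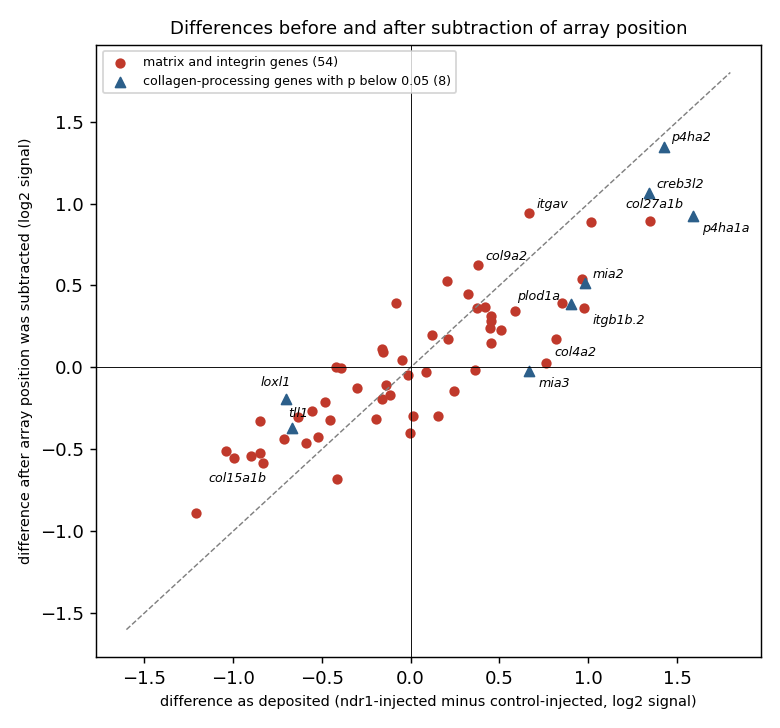
Differences in log2 signal, *ndr1*-injected minus control-injected, as deposited (horizontal axis) and after the local shift with array position was subtracted (vertical axis). Circles are the 54 members, triangles the 8 collagen-processing genes with an unadjusted p below 0.05, and the dashed line marks equal values. Most large differences lie nearer 0 on the vertical axis, as for *col4a2* (0.76 and 0.03) and *mia3* (0.67 and -0.02), while *itgav* lies above the line (0.67 and 0.94).

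Other genes of the same machinery were read from 3 lists chosen by function, with 136 measured genes. The lists were drawn up with earlier results of these data known, so their shares beside those of all named genes are descriptive only. In these, 11 genes, 8.09%, had an unadjusted p below 0.05, against the 6.93% of all named genes, and 0 had an adjusted p below 0.05. Of 34 measured focal adhesion and linker genes, 2 (5.88%) had an unadjusted p below 0.05, against 6.93% of all genes. Both were higher, while 22 of the 34 were lower on average, against 7138 of 14434 named genes. With array position subtracted 11 of the 34 were lower, against 6332 of 14434. In the deposited values the groups were apart for 7 of the 34, 20.6%, against 14.0% of all named genes, with 4 higher and 3 lower. With array position subtracted 2 were apart, 5.88%, against 12.4% of all named genes. *vcla*, which encodes the linker vinculin, gave 9.04, 8.74 and 9.04 in *ndr1*-injected and 7.88, 7.59 and 7.43 in control-injected embryos. The groups were apart by 0.86 between the nearest arrays, and the difference was 1.31 ± 0.24 (2.47-fold, unadjusted p = 0.001, adjusted p = 0.402), or 0.68 after subtraction of array position. *pxnb*, a paxillin gene, was at 0.56 ± 0.23 (unadjusted p = 0.045), or 0.31 after the subtraction. The list's median was -0.09, and 0.09 after the subtraction.

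Of 48 measured glycoproteins and proteoglycans of the matrix, 1 had an unadjusted p below 0.05, against 6.93% of all named genes. *ntn4*, a laminin-related netrin of basement membranes, gave 9.31, 10.34 and 9.57 in *ndr1*-injected and 10.70, 10.36 and 10.79 in control-injected embryos, a difference of -0.88 ± 0.32, which was -0.28 after subtraction of array position. *acana*, which encodes the cartilage proteoglycan aggrecan, followed at -0.98 ± 0.48 (unadjusted p = 0.080), or -0.40 after the subtraction. The median of the list was -0.34, and -0.12 after subtraction of array position.

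Of 54 measured genes of collagen processing, crosslinking and matrix remodelling, 8 had an unadjusted p below 0.05, 14.8%, against 6.93% of all named genes. Of these 6 were higher, against 4.34% of all genes, and 2 lower, against 2.59%, and the median of the list was 0.03. *p4ha2*, a catalytic subunit of the prolyl hydroxylase that stabilises the collagen helix, gave 10.23, 9.30 and 8.98 in *ndr1*-injected and 7.57, 7.95 and 8.72 in control-injected embryos. The groups were apart, and the difference was 1.43 ± 0.43 (unadjusted p = 0.012, adjusted p = 0.711), or 1.35 after subtraction of array position. *plod1a*, a lysyl hydroxylase of collagen, gave 8.56, 8.80 and 8.78 in *ndr1*-injected and 7.65, 7.78 and 8.003 in control-injected embryos, a difference of 0.90 ± 0.22 (unadjusted p = 0.005), or 0.39 after that subtraction. Both enzymes were higher on every *ndr1*-injected array than on any control, as were 8.11% of all named genes. Other genes of the list were also apart, among them *p4ha1a* and *mia3* higher and *loxl1* and *p4ha3* lower. *p4ha3* was at -0.74, or -0.45 after the subtraction. The groups were apart for 9 of the 54 genes, 16.7%, against 14.0% of all named genes.

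The other 4 with a positive difference were *p4ha1a*, the second prolyl hydroxylase subunit, at 1.59 ± 0.52, *creb3l2*, a transcription factor for secretory cargo genes, at 1.34 ± 0.51, and *mia2* and *mia3*, which load bulky cargo such as procollagen for export, at 0.98 ± 0.41 and 0.67 ± 0.24. Subtraction of array position left *p4ha1a* at 0.93, *mia2* at 0.51 and *mia3* at -0.02. The 2 with a negative difference were *loxl1*, a crosslinking oxidase, at -0.70 ± 0.28, and *tll1*, a tolloid-like protease, at -0.67 ± 0.28 on its brightest feature, and after the subtraction they were at -0.19 and -0.37. With array position subtracted 3 of the 54 genes, 5.56%, had an unadjusted p below 0.05, against 5.89% of all named genes. None of the 8 had an adjusted p below 0.05.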

How the data were processed

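Total RNA (15 µg a sample) was labelled with Alexa Fluor 555 and hybridised to Agilent zebrafish arrays. The authors normalised the signals by qspline in oneChannelGUI and deposited 1 log2 value per feature and array, between 4.92 and 16.26, and these values were used without further normalisation. The sources do not name the log base, and base 2 was inferred from the range. The authors scanned the arrays with an Axon GenePix instrument, and no source used here states a background correction or detection calls. For injections in general, the study's methods state less *ndr1* mRNA than the labels do, and control embryos that received *egfp* mRNA rather than water. The labels of these samples were followed, so dose and control rest on them. Of 45220 features 21061 carried 1 gene symbol, 24159 were unnamed, and 298 symbols were updated. Differences were fitted over 14434 genes with lmFit and eBayes (limma 3.58.1, R 4.3.3) and Benjamini-Hochberg adjustment, after the code was tested on simulated data. An exact permutation test of 3 against 3 arrays cannot give a p below 0.1. Members and lists were chosen with earlier results of these data known. The rule named the 12 members with the smallest p, the brightest of each class, members whose groups were apart by a mean difference of at least 1 log2 unit, and 2 genes of each list. The other members and list genes were named for their role after their values were seen. Array position was handled on a grid 85 features wide, inferred from the feature numbers, by subtracting the median deviation in windows of 9 by 9 features. Alternatives were other normalisation, filters, variance models, weights, feature rules, a replicate block and each array left out. No sequences were used.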

Additional observations from a re-analysis of the deposited data

How the results depend on the processing

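In limma 0 of the 54 members had an adjusted p below 0.05 in every one of the 15 alternatives, over which the lowest adjusted p of any member was 0.309. With 3 arrays a group, the 95% interval reached less than 1 log2 unit to either side for 29 of 54 members, against 10533 of 14434 named genes. Of the members 33.3% were dim, and the part of dimness in the interval widths was not tested. The members with an unadjusted p below 0.05 numbered 0 of 36 without the dimmest 25% of features (6.32% of all genes), 6 with array weights (11.1%, against 8.67% of all genes) and 8 with a replicate block (14.8%, against 6.83%). With 1 array left out they numbered 1 (1.85%, against 3.55%, without *ndr1*-injected replicate 3) to 10 (18.5%, against 11.8%, without control-injected replicate 2). Leaving out control-injected replicate 1 gave 7 (against 7.36% of all genes), and leaving out control-injected replicate 3 or *ndr1*-injected replicate 1 gave 5 each (9.26%, against 6.79% and 4.23%). Same-numbered arrays correlated in their deviations at 0.174, -0.096 and 0.02, so the numbers were not taken as pairs, and *ndr1*-injected replicate 2 correlated best with control-injected replicate 3, at 0.209. Members whose groups did not overlap numbered 2 of 36 without the dimmest 25% (5.56%, against 14.1% of all genes). With array position subtracted they numbered 7 (13%, against 12.4%). With 1 array left out, where fewer arrays make a gap easier, they numbered 4 (without *ndr1*-injected replicate 3) to 14 (without control-injected replicate 2). There were 13 without either other control-injected array, and 9 and 10 without *ndr1*-injected replicates 1 and 2. In those fits 19.0% to 30.8% of all genes did not overlap. The median difference of members was 0.11 without the dimmest 25%, and -0.032 to 0.086 with 1 array left out. Related genes with an unadjusted p below 0.05 numbered 4 with array position subtracted, 2.94%, against 5.89% of all genes. Without *ndr1*-injected replicate 3 they numbered 4 (2.94%, against 3.55%), and without control-injected replicate 2 they numbered 20 (14.7%, against 11.8%). They numbered 19 without *ndr1*-injected replicate 2 (14%, against 8.22%) and 6 without *ndr1*-injected replicate 1 (4.41%, against 4.23%). *ndr1* had an adjusted p of 0.066, and passed 0.05 with an intensity trend (3.65), array weights (3.59) and array position subtracted (3.27). Differences as deposited were under 0.5 log2 units in size for 59.3% of members and 73.4% of all named genes. Of the members 27 changed sign in at least 1 alternative, a count not made over all named genes. With array position subtracted these were *col11a1a* -0.15, *col13a1* -0.30, *col17a1b* 0.044, *col1a2* 0.11, *col4a1* -0.013, *itga2b* -0.30, *itgb1b* 0.092, *lama1* -0.030, *lamb2l* 0.0033 and *lamc1* 0.39, and of the lists *mia3* -0.023. With array weights they were *col17a1b* 0.29 and *col4a5* 0.13. With the feature of smallest p they were *col10a1a* -1.15, *col1a2* 0.42, *col9a2* -0.50, *fn1a* 0.83 and *lamc1* 0.59, and of the lists *tll1* 1.04. With the mean of a gene's features they were *col10a1a* -0.35, *col1a2* 0.033, *col9a2* -0.059, *fn1a* 0.36, *lamc1* 0.27 and *tll1* 0.30. With 1 array left out the differences ran over 0 for *col13a1* (-0.31 to 0.62), *col17a1b* (-0.67 to 0.27), *col18a1a* (-0.017 to 0.22), *col1a2* (-0.73 to 0.58), *col23a1a* (-0.012 to 0.88), *col4a3* (-0.55 to 0.23), *col4a5* (-0.51 to 0.58), *col6a1* (-1.34 to 0.18), *col8a2* (-0.87 to 0.039), *fn1a* (-0.24 to 0.0061), *fn1b* (-0.59 to 0.052), *itga1* (-0.017 to 0.47), *itga2b* (-0.20 to 0.31), *itgav* (-0.029 to 1.09), *itgb1b.1* (-0.021 to 0.91), *itgb2* (-0.57 to 0.17), *itgb4* (-0.50 to 0.51), *lama1* (-0.17 to 0.31), *lamb3* (-0.92 to 0.37), *lamb4* (-0.64 to 0.026) and *lamc1* (-0.25 to 0.064). The cause of these changes was not tested.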

Other observations

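The annotation lists a tenascin gene as *tncb* and a collagen gene under a clone name that was updated to *col19a1*, and neither matched the pattern of names. *tncb*, whose protein is a matrix glycoprotein, averaged 7.99 log2 units in *ndr1*-injected and 8.65 in control-injected embryos. The difference was -0.65 ± 0.40 (unadjusted p = 0.143 in limma), or -0.24 after subtraction of array position. All *ndr1*-injected arrays were below all control-injected arrays, as for 5.86% of all named genes. The nearest arrays were at 8.19 in *ndr1*-injected and 8.22 in control-injected embryos, and control-injected replicate 1 was the highest, at 9.49. *col19a1* averaged 8.18 in *ndr1*-injected and 8.50 in control-injected embryos, a difference of -0.33 ± 0.45, or -0.06 after the subtraction. Both were looked up after the values of the other genes had been seen.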
